A study of Triticum aestivum with 10 samples.

Results

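A set of 251 probe sets of the Affymetrix Wheat Genome Array had a high signal in fertile 3.0-mm anthers and a low one everywhere else in a 10-array series of the wheat (Triticum aestivum) line BS366. The array reads each transcript with a group of short oligonucleotide probes, called a probe set, and gives a signal on a linear scale. Members were chosen by their measured signals: at least 300 on the fertile 3.0-mm array and at least 8 times the highest signal on the other 9 arrays, after every signal under 20 was raised to that floor. The 251 members were 0.410% of the 61178 probe sets left once control probe sets had been taken out. Because these values chose the members, they are described here without a test.

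BS366 is a thermosensitive genic male sterile (TGMS) line, selected from a natural mutant among doubled haploid lines, whose pollen fails after cold in the reproductive phase. Plants of this 1 genotype were vernalized in the field and raised in phytotrons at 20 °C with 12 h of light per day. The fertile treatment stayed at that temperature, and the sterile treatment was 10 °C for 5 days under the same day length. In each treatment anthers were taken at 5 lengths, with 1.5 mm and 2.0 mm as the shortest, 2.2 mm and 2.5 mm between and 3.0 mm as the longest, all labelled as meiosis stage, and hybridized with 1 array per length and treatment, so a difference at a single length has no replicate. The arrays pair treatments by anther length and not by stage. Whole anthers were used, so fewer cells of a type and less RNA per cell cannot be told apart.

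Anthers hold the developing pollen and the somatic layers around it, the innermost being the tapetum, which feeds the microspores and supplies material for the pollen wall. Once meiosis ends, tapetum and microspores switch on large sets of genes that are silent in other tissues, and then the tapetum breaks down. Lipid transfer proteins are small secreted proteins that bind lipids, and some members of this family are abundant in the tapetum. The RAFTIN proteins of cereals are made in the tapetum and are needed for late pollen development.

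The fertile 3.0-mm array stood apart from the others over all probe sets. Its mean correlation of log2 signals with the other 9 arrays was 0.879, whereas the other arrays had mean correlations of 0.933 to 0.959. Mean signals of all 10 arrays lay between 118 and 125. The hybridization controls averaged 257 on the fertile 3.0-mm array, between the 193 to 307 of 8 other arrays, with 666 on the fertile 2.2-mm array. The control probe set for 18S ribosomal RNA read 2.22 on the fertile 3.0-mm array, against 3.91 to 2833 across the remaining arrays. The part of these array-wide values in the results was not tested, and the set cannot be formed without this array.

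The same rule turned on each other array picked 4 probe sets on the fertile 2.2-mm array, 4 on the fertile 2.5-mm array and 0 on each of the other 7. The reverse rule, a signal no higher than an eighth part of the lowest of the other 9 signals when those were all at least 300, picked 45 probe sets on the fertile 3.0-mm array, 1 on the fertile 2.2-mm array and 0 elsewhere. No sterile array, the 3.0-mm one included, had a set of this kind in either direction. Just inside the ratio limit lay Ta.1151.1.S1_at with a ratio of 8.03, Ta.21373.1.S1_x_at with 8.04 and Ta.11380.1.A1_at with 8.07. Just outside it lay Ta.5382.1.S1_x_at with 7.93, Ta.453.1.S1_x_at with 7.82 and Ta.1213.1.A1_at with 7.77. The signal limit fell between Ta.1674.1.S1_s_at (304), TaAffx.92599.1.S1_at (304) and Ta.9288.2.S1_x_at (308) on the inside and Ta.28087.1.S1_s_at (299), TaAffx.105012.1.S1_at (295) and Ta.29534.1.S1_x_at (294) on the outside. No gap in the values separated members from the probe sets next to them.

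**Figure D1:**
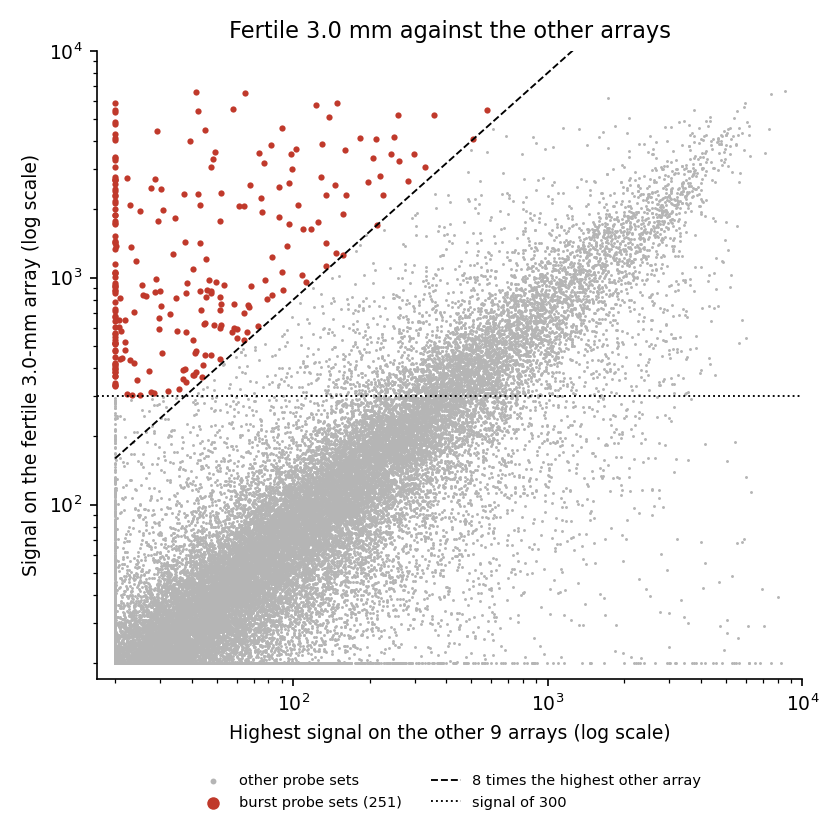
Signal of each probe set on the fertile 3.0-mm array (vertical, log scale) against its highest signal on the other 9 arrays (horizontal, log scale), both with a floor of 20. Red points are the 251 chosen probe sets, grey points all others with a value above the floor, and the lines mark the 2 limits of the rule, a signal of 300 and a ratio of 8.

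Members covered a wide range of brightness at fertile 3.0 mm. Member signals on the fertile 3.0-mm array ran from 304 to 6558 with a median of 1011, and 126 members reached 1000, 82 reached 2000 and 26 reached 4000. Of the 20 brightest probe sets on that array, 12 were members, and of the 100 brightest, 28. Together the members made up 5.36% of the summed signal of the fertile 3.0-mm array and 0.105% to 0.159% of that of the other 9 arrays. The ratio of fertile 3.0 mm to the highest other array ran from 8.03 to 293, with a median of 24.1. Against the sterile array of the same length it ran from 8.34 to 328, with a median of 36.6.

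Outside fertile 3.0 mm most members were at or near the floor. The median member signal was 21.7 on the fertile 2.5-mm array and 20 on the other 8, close to the medians of all probe sets on the same 9 arrays (20.6 to 24.1). All 9 other arrays were at the floor for 78 members (31.1%), so that their folds are lower bounds, from at least 16.6 to at least 293. At sterile 3.0 mm, 156 members (62.2%) were at the floor, as were 49.1% of all probe sets. The highest of the other 9 signals exceeded 40 for 115 members, 100 for 38 and 200 for 15.

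**Figure D2:**
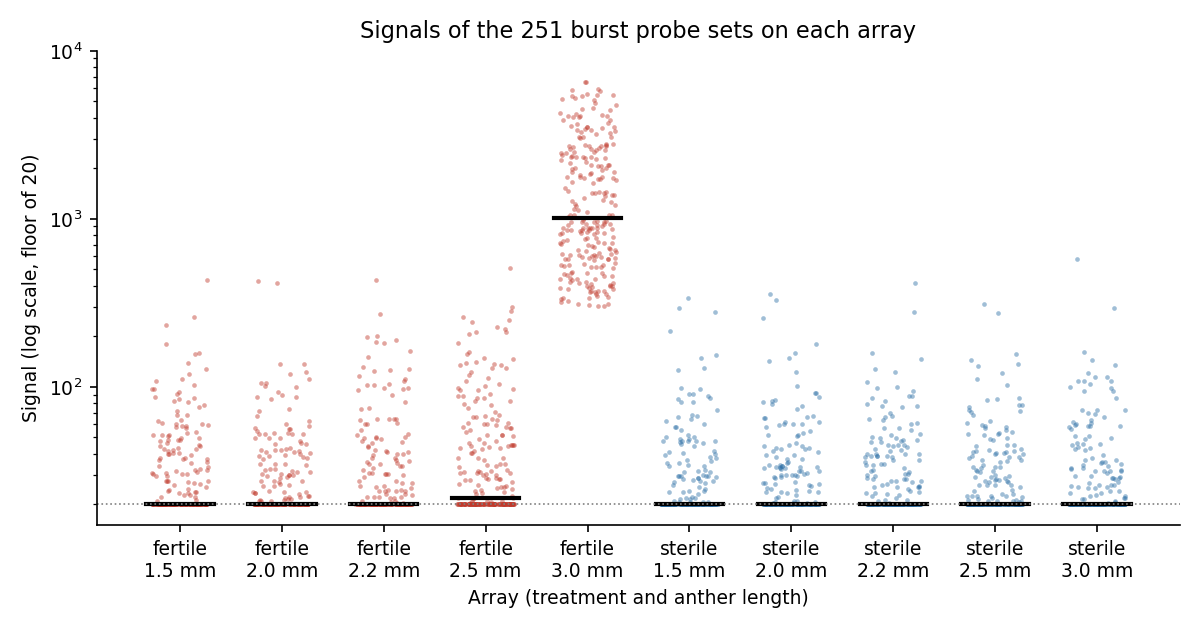
Signals of the 251 members (points, log scale with a floor of 20) on each of the 10 arrays, with the median as a bar. Medians sit at the floor on 8 arrays, at 21.7 on the fertile 2.5-mm array and at 1011 on the fertile 3.0-mm array.

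The brightest members came from several clusters of probe sets. Ta.15373.3.S1_x_at was the brightest, with 6558 at fertile 3.0 mm. It was at the floor on the 4 shorter fertile arrays and at sterile 3.0 mm, and read 27.4 to 41.6 on the 4 shorter sterile arrays. Ta.11808.1.S1_s_at reached 6530 and had the same outline, with 25.5 to 64.9 on the shorter sterile arrays and the floor on the other 5. Neither has a gene in the annotation used here.

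TaAffx.87253.1.S1_at reached 5867 at fertile 3.0 mm and was at the floor on all 9 other arrays, a fold of at least 293 and the highest of the set. Ta.15373.2.S1_x_at followed with 5455 and at least 273, and Ta.23044.1.A1_s_at with 5358 and at least 268. Ta.15373.2.S1_at had 4857 and at least 243, and Ta.15373.3.S1_at had 4746 and at least 237. All 5 of these ratios are bounded by the floor and not by a measured level. Among the 10 brightest without a gene, Ta.3812.1.A1_a_at reached 5402, with 42.1 as its highest other signal. Ta.4219.2.S1_a_at reached 5778 and was above the floor on 1 other array only, with 122 at fertile 2.5 mm. Ta.4231.1.S1_at and Ta.3812.2.A1_a_at, with 5898 and 5550, belong to a group with early signal that is described further on.

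Ta.14462.3.S1_a_at had the highest signal of any member outside fertile 3.0 mm, 577 at sterile 3.0 mm. Its signals in fertile anthers were 158, 426, 434, 136 and 5481 from 1.5 to 3.0 mm, and in sterile anthers 63.0, 160, 416, 274 and 577. The fertile 3.0-mm signal was 9.50 times that of sterile 3.0 mm, which was its highest on the 9 other arrays. Its relative Ta.14462.1.S1_x_at showed a similar outline at lower levels, with 35.5, 137, 125, 75.1 and 3646 in fertile and 20.0, 60.3, 99.7, 72.5 and 160 in sterile anthers. Both dipped at 2.5 mm in fertile anthers before the burst.

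A gene is given for 13 members, which stand for 11 genes, or 5.18% of the members against 2.08% of all probe sets. In this annotation the only gene of these with a name is LTP3 (LOC543095), a lipid transfer protein. The other 10 carry LOC numbers alone, and no role is given to them here. LTP3 and 3 further probe sets come from the same sequence cluster, Ta.1282, the number that the array's design gives to sequences assembled together. Suffixes _x_at and _s_at mark probe sets whose probes also match other transcripts, so the relatives in this cluster may share signal.

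The LTP3 probe set Ta.1282.1.S1_x_at read 43.4, 34.6, 116, 146 and 2554 in fertile anthers from 1.5 to 3.0 mm. In sterile anthers it read 20, 25.6, 20, 45.3 and 37.0. The fertile signal was above the sterile one at every length, and its 3.0-mm level was 17.5 times its 2.5-mm level. The other LTP3 probe set, Ta.1282.4.S1_at, was at the floor on 9 arrays and read 57.3 at fertile 3.0 mm, which is under the limit of the rule. The 2 probe sets of the gene therefore differed in level and had their highest signal on the same array.

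LOC778422 (Ta.1282.3.S1_x_at) read 85.7, 45.4, 132, 183 and 4147 in fertile anthers and 46.8, 26.3, 47.9, 52.8 and 60.2 in sterile anthers. LOC100037539 is read by 2 members. Its Ta.1282.2.S1_x_at gave 58.8, 41.4, 163, 297 and 3493 in fertile anthers and 20, 20, 20, 41.6 and 72.6 in sterile anthers, and Ta.1282.2.S1_at gave 3262 at fertile 3.0 mm with 260 as its highest other signal. All 4 members of the cluster dipped at fertile 2.0 mm, rose at 2.2 and 2.5 mm and stayed under 80 in every sterile array.

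Outside that cluster, LOC542838 (Ta.10084.1.S1_at) was the brightest annotated member. It read 180, 106, 80.9, 249 and 4177 in fertile anthers and 85.0, 122, 108, 136 and 108 in sterile anthers. Sterile levels stayed within a narrow band, and the fertile level rose after a low at 2.2 mm. Its other probe sets, TaAffx.130064.3.S1_x_at with 384 and TaAffx.130064.3.S1_s_at with 161 at fertile 3.0 mm, had ratios of 3.48 and 8.04 and were not members.

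LOC543329 (Ta.137.1.S1_at) was at the floor in all 5 sterile anthers and read 20, 20, 35.8, 78.9 and 808 in fertile anthers. LOC100125701 (Ta.8629.1.A1_at) reached 1209, with 45.5 at sterile 3.0 mm as its highest other signal. LOC100037569 (Ta.27766.2.S1_at) reached 840 from 39.7 to 82.4 elsewhere, and LOC542807 (Ta.25762.1.S1_at) reached 576 from 31.5 to 57.8. The dimmest annotated members were LOC100125730 (Ta.9773.1.S1_at) with 468, LOC543134 (Ta.24561.1.S1_at) with 393 and LOC543135 with 387 and 355 on its 2 probe sets, all with no other signal above 41.0. Annotated probe sets just short of the rule were those of LOC100037579 (284 at fertile 3.0 mm, ratio 14.2), LOC543440 (281, 14.0), LOC543004 (254, 12.7), LOC100037572 (288, 9.31) and LOC100037571 (210, 8.85). All 5 missed it by their signal and not by their ratio.

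**Figure D3:**
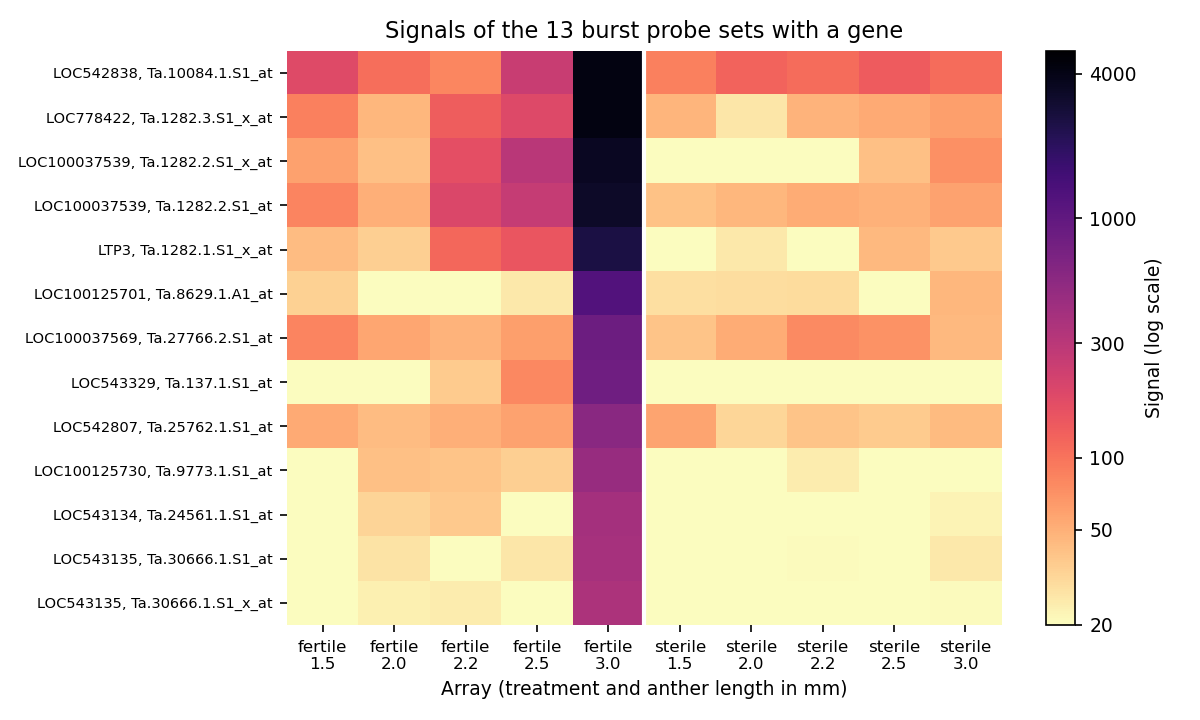
Signals (colour, log scale from 20 to 5000) of the 13 members with a gene on the 10 arrays, fertile at the left and sterile at the right of the white line. The fertile 3.0-mm column is the darkest in each row, and the 4 rows of the Ta.1282 cluster also darken at fertile 2.2 and 2.5 mm.

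In a minority of clusters more than 1 probe set was a member. The 251 members carried 200 cluster numbers. Of these clusters 164 held 1 member and 36 held at least 2, 87 members in all. Some of the 87 have identifiers that differ only in the suffix, such as Ta.15373.2.S1_at and Ta.15373.2.S1_x_at, and may read the same transcript. All 5 probe sets of Ta.15373 were members, with 2462 to 6558 at fertile 3.0 mm and no other signal above 41.6. All 5 of Ta.5346 were members, with a median of 2782 and up to 129 elsewhere, and so were 4 of the 5 of Ta.1282 and all 3 each of Ta.3812 (4031 to 5550) and Ta.23044 (743 to 5358). Another 63 probe sets shared a cluster number with a member without meeting the rule. Of these, 34 (54.0%) had a fertile 3.0-mm signal at least 2 times the highest other, which 2.78% of all probe sets had, and 20 were at the floor at fertile 3.0 mm. Relatives were themselves screened by the rule, so this count is a description. Among the members 72 (28.7%) had the suffix _s_at or _x_at, against 15.4% of all probe sets, and 182 (72.5%) had an identifier starting with Ta., against 51.4%.

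A rise in fertile anthers before 3.0 mm was seen in a minority of members. At fertile 2.5 mm, 19 members were at least 2 times the highest of the 3 shorter fertile arrays, as were 0.619% of all probe sets. Ta.20686.1.A1_at had the largest of these rises, with the floor at 1.5, 2.0 and 2.2 mm, 139 at 2.5 mm and 5084 at 3.0 mm in fertile anthers and the floor in all 5 sterile ones. Ta.4219.2.S1_a_at rose at least 6.12-fold at 2.5 mm, and Ta.16018.1.S1_at went from 30.9 at 2.2 mm to 109 at 2.5 mm and 1647 at 3.0 mm. These early rises were small beside the step that followed. The rule's ratio limit held that step above even the largest early rise, so this order follows from how the members were chosen. The number of early rises depended on the limits, being 4 with a fold of 3 and 38 with a fold of 1.5.

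Among the 115 members with any other signal above 40, the highest of the other 9 lay on the fertile 2.5-mm array for 58 (50.4%). That array held the highest other signal of 21.1% of all probe sets above the same level. Fertile 1.5 mm followed with 15 members, sterile 3.0 mm with 10, fertile 2.2 mm and sterile 1.5 mm with 9 each, sterile 2.0 mm with 7 and sterile 2.5 mm with 4. Fertile 2.0 mm had 2 and sterile 2.2 mm had 1. These signals are the ones the rule set a limit to, so the shares are a description.

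**Figure D4:**
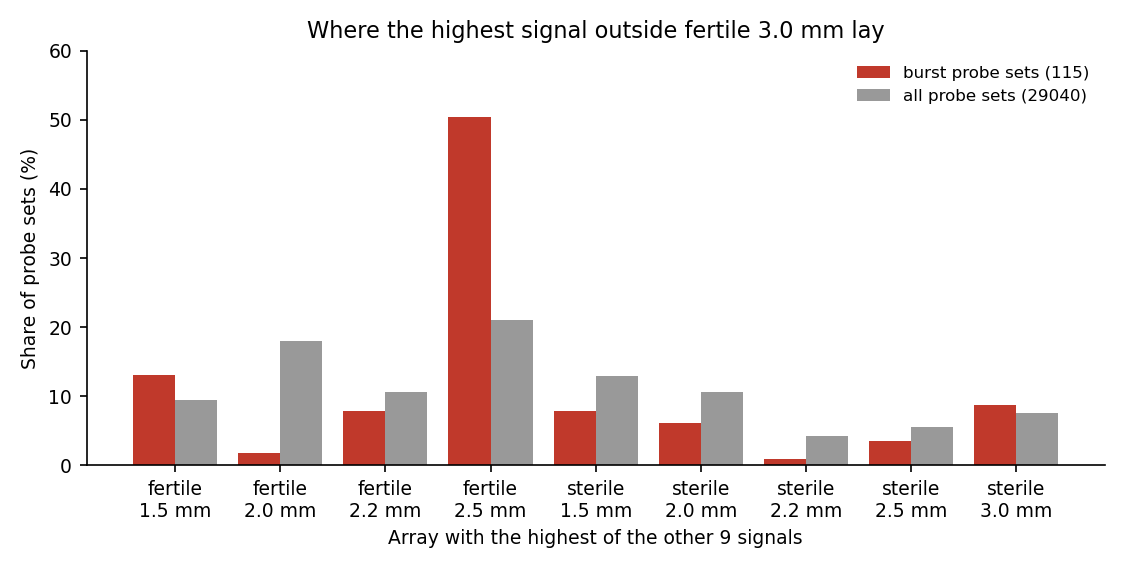
Share of probe sets (%) whose highest signal outside fertile 3.0 mm lay on each of the other 9 arrays, for the 115 members (red) and all 29040 probe sets (grey) with such a signal above 40. The bar of the fertile 2.5-mm array is at 50.4% for the members and 21.1% for all.

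The rule kept every sterile 3.0-mm signal low beside fertile 3.0 mm, but set no order among the sterile arrays. At sterile 3.0 mm, 3 members were at least 2 times the highest of the 4 shorter sterile arrays, against 0.514% of all probe sets. TaAffx.65472.1.S1_x_at read 20.2, 20, 21.4, 22.3 and 73.2 in sterile anthers and 20, 22.1, 89.0, 135 and 1422 in fertile anthers. Ta.9288.1.S1_x_at was at the floor in the 4 shorter sterile anthers and at 46.5 at 3.0 mm, and Ta.5346.1.A1_a_at read 20 to 26.5 and then 58.7. The sterile 3.0-mm levels of all 3 were below their fertile 2.5-mm levels. With a floor of 50 no member met this limit, and with a floor of 4 there were 11.

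Some marker genes of anther cell types also differed at fertile 3.0 mm. The 4 RAFTIN probe sets (TaRAFTIN1A and TaRAFTIN1B), which mark the tapetum, summed to 19133 at fertile 3.0 mm, 9189 at sterile 3.0 mm and 1826 to 16609 over all other arrays, and 2 of the 4 were highest at fertile 3.0 mm. Defining markers of the tapetum were thus present on every array. The 18 probe sets of histones H2A and H2B, which are abundant in dividing cells, summed to 9334 at fertile 3.0 mm and 20352 to 43199 elsewhere, with 17 of 18 at their lowest on that array. The part of either change in the burst was not tested. The 2 profilin probe sets summed to 4489 against 3377 to 4013, and only 1 of the 2 was highest at fertile 3.0 mm. The 6 probe sets of the photosynthesis genes PRK, PsbO, PsbP and petC summed to 9595 against 2098 to 8842. Of these 6, 4 were highest at fertile 3.0 mm and 1 was at the floor throughout. The 28 probe sets of the photosynthesis gene rbcL, which were not among the markers set for green tissue, summed to 14159 and were highest at fertile 2.2 mm, with 17212. Of 22 seed endosperm probe sets, 15 were at the floor on all arrays. The sum of the 22 was 1318, within the 1262 to 1440 of the other arrays. At fertile 3.0 mm 837 of it came from Ta.27777.1.S1_at alone and 17 of the 22 were at the floor, so the sum says little about the rest.

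Lists of genes by function added only LTP3 to the members with a name. Of 11 lists, 10 matched any probe set. The probe set that the rule left out by name was not available to any list. The tapetum and exine list was the only one with a member, 1 of its 6 probe sets. At least 2 times the highest other signal at fertile 3.0 mm was reached by 2 of those 6, both of LTP3, and by 2 of 10 probe sets for sugar and starch. The latter were BMY1, a beta-amylase that breaks down starch, with 4534 against a highest other signal of 1327, and IVR1, with 59.6 against the floor. IVR1 is a name for an invertase, which splits sucrose, but the annotation also gives this gene the synonym atpA. None of the 12 stress, 20 defence, 5 transport, 2 regulator, 34 photosynthesis, 20 histone and cell cycle, 2 pollen or 22 endosperm probe sets reached 2 times. The defence list includes Ta.239.1.S1_at of Eif4B, matched only by letters within a synonym. The histone and cell cycle list includes probe sets of Hmgb3. The annotation covers too few members for a count by pathway.

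Whether members differed between treatments before 3.0 mm was asked on the 8 arrays of 1.5 to 2.5 mm, without either 3.0-mm array. The rule limited the signals on these 8 arrays too, but did not compare the treatments among them. The limma model had treatment and anther length as factors, so that the 4 lengths stood in for replicates. A mean signal of at least 40 over these arrays was required, which 45 of the 251 members met. At a Benjamini-Hochberg adjusted p under 0.05, 10 of the 45 differed, while 872 of all 22667 probe sets tested did (3.85%). Of the 10 members, 6 were lower in sterile anthers and 4 were higher, against 2.55% and 1.30% of all tested. A member that met the minimum through its higher treatment alone was bound to have unequal means, so the counts are a description. Of 9 such members tested, 3 passed. In 3 of the 10, Ta.4231.1.S1_at, Ta.4035.1.A1_at and Ta.1282.2.S1_x_at, the mean of the lower treatment was under the minimum. Their signals are given without a test. In the other 7, of which 4 were lower and 3 higher in sterile anthers, both means reached it.

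Of the 6 members lower in sterile anthers, 2 belonged to the Ta.1282 cluster of LTP3. Ta.1282.3.S1_x_at (LOC778422), whose signals stand above, was lower by a log2 difference of -1.23 ± 0.24 (SE, 4 lengths; limma adjusted p = 0.035). The other was Ta.1282.2.S1_x_at (LOC100037539), which was at the floor in sterile anthers up to 2.2 mm. The LTP3 probe set itself did not pass, and its sterile mean was under the minimum. Ta.1282.2.S1_at, the other member of LOC100037539, did not pass either (limma adjusted p = 0.075), and both its means reached the minimum. In all 4 members of the cluster the sterile signal was below the fertile one at 4 of 4 lengths.

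Ta.4035.1.A1_at read 60.6, 59.9, 186 and 282 in fertile anthers from 1.5 to 2.5 mm and 20, 31.5, 44.0 and 58.5 in sterile anthers. The 2 ranges did not overlap. At 3.0 mm it read 2669 in fertile and 108 in sterile anthers, so that sterile anthers also rose with length, from a lower level. Ta.4136.1.S1_at gave 63.7, 87.2, 151 and 220 in fertile and 36.4, 38.3, 66.8 and 59.4 in sterile anthers, a difference of -1.26 ± 0.23 (limma adjusted p = 0.029). Ta.1151.1.S1_at gave 139, 106, 201 and 213 in fertile and 64.6, 54.6, 82.1 and 78.0 in sterile anthers, a difference of -1.20 ± 0.18 (limma adjusted p = 0.018). The ranges of Ta.4136.1.S1_at overlapped and those of Ta.1151.1.S1_at did not. The sixth, Ta.30603.1.S1_s_at, had -1.45 ± 0.32 (limma adjusted p = 0.048).

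The 4 members higher in sterile anthers had a different course. In fertile anthers Ta.4231.1.S1_at read 44.3 and 31.8 at 1.5 and 2.0 mm, fell to the floor at 2.2 and 2.5 mm and reached 5898 at 3.0 mm. In sterile anthers it read 148, 143, 94.9 and 121 up to 2.5 mm and was at the floor at 3.0 mm. Its fertile and sterile ranges up to 2.5 mm did not overlap. TaAffx.92553.1.S1_at read 260, 136, 20, 20 and 5235 in fertile and 338, 359, 158, 157 and 20 in sterile anthers, a difference of 1.93 ± 0.42 (limma adjusted p = 0.047). Ta.4046.1.S1_a_at, with 1.86 ± 0.41 (limma adjusted p = 0.0495), and TaAffx.9640.1.S1_s_at, with 1.80 ± 0.27 (limma adjusted p = 0.018), followed the same outline. The size of these differences depends on the floor, where fertile 2.2 and 2.5 mm lay. With a floor of 4, TaAffx.92553.1.S1_at had 2.92 (limma adjusted p = 0.072) and Ta.4046.1.S1_a_at 3.02 (limma adjusted p = 0.075). TaAffx.9640.1.S1_s_at had 2.96 (limma adjusted p = 0.046). Up to 2.5 mm Ta.4046.1.S1_a_at ran close to TaAffx.92553.1.S1_at, with 233, 119, 20 and 20 in fertile and 279, 329, 146 and 144 in sterile anthers. Whether these probe sets read separate transcripts was not tested. The fertile and sterile courses crossed between 2.5 and 3.0 mm in all 4 members higher in sterile anthers. The rule put fertile 3.0 mm above every sterile array, so this crossing follows from how the members were chosen.

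**Figure D5:**
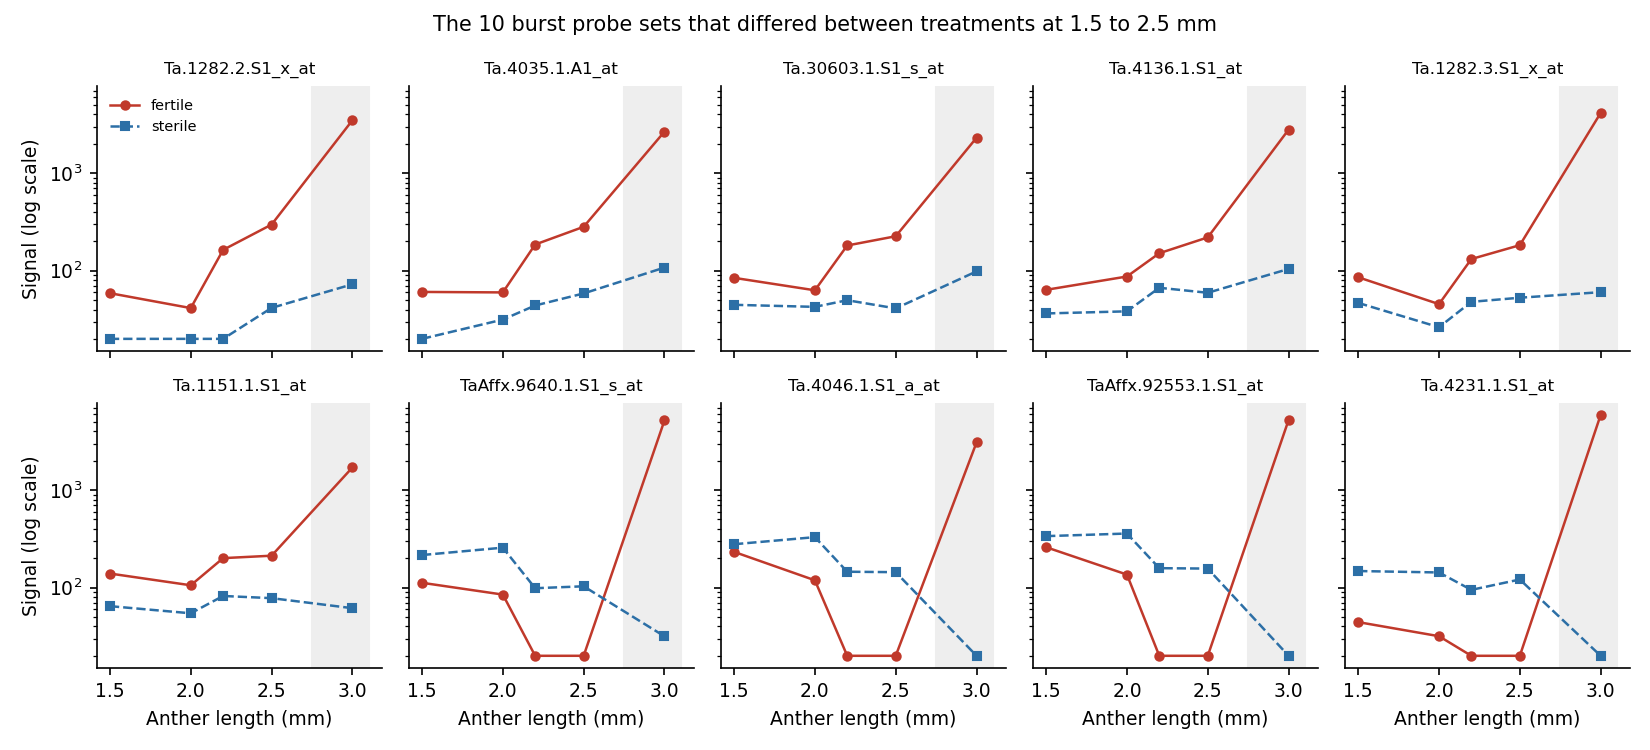
Signals (log scale) against anther length (mm) for the 10 members with an adjusted p under 0.05 at 1.5 to 2.5 mm, fertile as red circles and sterile as blue squares, 1 array per point. The shaded 3.0-mm arrays were not in the model. In the last 4 panels the sterile signal lies above the fertile one up to 2.5 mm and below it at 3.0 mm, where the rule set the order.

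These 4 were part of a group of 8 members, defined after their values were seen, with at least 40 at fertile 1.5 mm and the floor at fertile 2.2 and 2.5 mm. The 8 were 3.19% of the members, and 0.373% of all probe sets had that pattern. Their median signals in fertile anthers were 60.2, 30.8, 20, 20 and 4359, and in sterile anthers 102, 108, 66.9, 72.9 and 20. The other 4 were Ta.3812.2.A1_a_at, TaAffx.87171.1.S1_at, Ta.13454.1.S1_at and TaAffx.104989.1.S1_at. At sterile 3.0 mm 7 of the 8 were at the floor, and the exception, TaAffx.9640.1.S1_s_at, read 31.7. Ta.13454.1.S1_at had no early sterile signal, with 28.9 at 2.0 mm and the floor at the other 4 sterile lengths. The fertile course of the group follows from how it and the members were chosen.

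Leaving out the 2.0-, 2.2- or 2.5-mm pair of arrays lowered the number of members that passed limma's treatment test from 10 to 3, 1 and 1, and without the 1.5-mm pair there were 11. Over all probe sets the 872 became 203, 60, 98 and 1124 in the same order. The 1 member left without the 2.2- or the 2.5-mm pair was Ta.4231.1.S1_at, whose fertile mean was under the minimum. With no minimum signal 0 of 173 members and 1 of all 40831 probe sets passed limma, with 21.4% of these members and 14.9% of all at an unadjusted p under 0.05.

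A change with anther length from 1.5 to 2.5 mm, over both treatments together, was not detected in any member. Of the 22667 probe sets 0 passed (0%) the limma model at an adjusted p under 0.05, while 2480 of all and 15 of the 45 members had an unadjusted p under 0.05. The smallest p among members belonged to Ta.4035.1.A1_at, with a log2 difference of 1.96 ± 0.40 per mm (limma adjusted p = 0.30). Its sterile mean was under the minimum signal. Ta.4136.1.S1_at had 1.33 ± 0.32 per mm and TaAffx.92553.1.S1_at -2.68 ± 0.68 per mm (limma adjusted p = 0.31 for both). The 4 lengths and 8 arrays limit what this model could detect.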

How the data were processed

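Total RNA of BS366 anthers was hybridized to 10 Affymetrix Wheat Genome Arrays. The authors deposited linear intensities, 1 per probe set, made with MAS5 per the submitters' processing notes. Its version is not given in the sources used. Detection calls were not used. Of 61290 rows, 111 control probe sets (AFFX) and 1 further probe set named by the rule were left out, and 64 reporter probe sets were also left out of the models and of the shares at 2.5 and 3.0 mm. Signals under 20 were set to 20.

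Log2 signals were tested with limma 3.58.1 in R 4.3.3 (lmFit, eBayes with an intensity trend; 3 residual degrees of freedom for treatment and 5 for length). Benjamini-Hochberg adjustment ran over all probe sets tested. Python 3 scripts did the rest.

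The lengths served as replicates. No source used here says that each array had its own plants, so p-values measure only the spread over lengths. The number of arrays limits the precision.

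Genes were looked up in GEO's platform annotation, which pairs 1273 probe sets with 771 genes. RefSeq's gene table (assembly IWGSC CS RefSeq v2.1, no coordinates used) held 770 of them. No probe set had several genes, and 1272 of the 61178 had 1.

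The members, lists and comparisons were chosen with earlier results of these data known. Named are all members with a gene, the 10 brightest and the 5 of highest ratio among the others, 3 on each side of each limit, up to 5 clusters, up to 5 members per direction and model (3 where none passed), and the 5 annotated probe sets outside the set with the highest ratio. Ta.30603.1.S1_s_at, the group of 8 with early signal and Ta.14462.1.S1_x_at were named after their values were seen, as were the examples of early rises. The LTP names of the tapetum list were matched after the annotation's names were seen. Alternatives were other floors, limits, filters and normalizations, models without the trend or the length block, and each array or length left out.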

Additional observations from a re-analysis of the deposited data

Results flagged for a closer look

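Of 43 groups of signals screened for a single value far from the rest, 9 had one. The limits used give about 1 in 20 by chance for normally distributed values. Signals raised to the floor are not of that kind, so the 9 cannot be compared with this rate. Over all probe sets the fertile 3.0-mm array had the lowest mean correlation with the others, 0.879, and the fertile 2.2-mm array had the highest hybridization controls, 666.

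Among the 5 sterile arrays, the 3.0-mm array was far below the shorter ones for Ta.4231.1.S1_at (20 against 94.9 to 148) and TaAffx.92553.1.S1_at (20 against 157 to 359). It was far above them for Ta.30603.1.S1_s_at (98.4 against 41.1 to 49.8). The remaining values of this kind lie close to the floor. They are 22.3 for Ta.24561.1.S1_at, 25.5 for Ta.30666.1.S1_at and 20.6 for Ta.30666.1.S1_x_at, all at sterile 3.0 mm, and 24.6 for Ta.9773.1.S1_at at sterile 2.2 mm.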

How the results depend on the processing

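The 251 members became 380 with a ratio of 4. Under the other alternatives the counts lay between 175 (a ratio of 16) and 333 (against the 5 sterile arrays alone), with 244 under quantile normalization and 242 under median centring. Without each of the other 9 arrays they ran from 251 to 281.

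The 10 members that differed between treatments before 3.0 mm became 4 with a minimum of 80, 6 with quantile normalization, 0 with a floor of 50 (limma, 13 at an unadjusted p under 0.05) and 0 with no minimum (37). A floor of 50 lies above the minimum of 40, so a floor of 50 with a minimum of 80 was added after seeing the data and gave 4. Leaving out 1 length at a time gave 1 to 11 members. With the anther length not used as a block (unpaired arrays), 1 member passed, and 70 of all probe sets. Over all probe sets, 872 became 1 with a floor of 50, 1 with no minimum, 445 with eBayes without a trend and 60 to 1124 with 1 length left out. The cause of these changes was not tested. With a floor of 4, 8 of the 10 members passed. No estimate of the 10 changed sign, but the size of some followed the floor.

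For the change with length, the count was 0 throughout for members, and over all probe sets 0 to 1 with 1 length left out. The members above the shorter sterile anthers at 3.0 mm went from 3 (0.514% of all probe sets) to 17 with a fold of 1.5 (1.79%), 1 with a fold of 3 (0.223%), 11 with a floor of 4 (1.64%), 0 with a floor of 50 (0.337%) and 6 with median centring (0.605%). Those above the shorter fertile anthers at 2.5 mm went from 19 to 38, 4, 34 and 8 in the same order, and to 12 with quantile normalization and 12 with median centring. The share of all probe sets at fertile 2.5 mm moved alongside, from 0.619% to between 0.175% and 2.62%. No sterile or fertile length has a second array, so none of the values at a single length has a replicate check.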
